A study of Mus musculus with 12 samples.

Results

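The neural cell adhesion molecules Ncam1 and Ncam2 and the polysialyltransferases St8sia2 and St8sia4 were described in sorted neurons of the mouse pontine nucleus, a hindbrain relay from the cortex to the cerebellum. They are 4 of 23079 genes in the deposited count table, were found by their gene symbols, and all 4 passed the filter on low counts that left 14732 genes. They were proposed with earlier results on their counts in these same groups known, and so are treated as chosen by those counts. Their differences are given as descriptions, with no test. The study asked how neurons labelled through the homeobox gene Hoxa5, and neurons of the Math1 lineage made to carry Hoxa5, differ from pontine neurons at large. All 12 libraries came from the pontine nucleus of CD-1 embryos at stage E18.5.

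The Hoxa5tdTomato group (n = 3) is named for Hoxa5 and the red reporter tdTomato, and its columns in the table name a Hoxa5 Cre. The Math1Hoxa5-IRES-GFP group (n = 3) is named for a Hoxa5 and GFP allele in the Math1 lineage, and its columns name Cag, lsl and Hoxa5. The Math1tdTomato group (n = 6) serves as the reference in the design of the series. Math1, also called Atoh1, encodes a transcription factor expressed in the rhombic lip, where pontine neurons are born. Column names divide the references into 3 libraries that name creErt2 and 3 that name tdT. The Hoxa5tdTomato libraries and the creErt2 references had 9973484 to 13302076 counts each, and the Math1Hoxa5-IRES-GFP libraries and the tdT references 22355961 to 29820776. These were treated as 2 sets, although no name states which references belong to which group, and set and depth cannot be told apart. The labels do not say whether replicates came from separate embryos, so that p-values measure only the spread between these samples. Expression is counted in a sorted population, and in such bulk samples fewer cells of a type and less RNA per cell cannot be told apart.

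Ncam1 and Ncam2 are paralogous cell surface proteins of the immunoglobulin superfamily that hold neighbouring cells and axons together. Ncam1 is the main protein to carry polysialic acid, a long negatively charged sugar chain that weakens adhesion and is known for its part in neuronal migration and axon growth. St8sia2 and St8sia4 are Golgi enzymes that build this chain. Ncam2, known from the mapping of olfactory axons, is not generally modified with it.

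Before the members, the identity of the libraries was checked. Hoxa5 stood at 127, 222 and 119 CPM (counts relative to the scaled library size, as edgeR defines CPM) in Hoxa5tdTomato, against 4.35 to 32.2 CPM over the 6 references. It passed the quasi-likelihood test of edgeR there, with a log2 fold change of 3.46 ± 0.59 (SE) and an adjusted p of 0.00712. Against the creErt2 references alone Hoxa5 had 3.53 ± 0.80 and did not pass (adjusted p = 0.0698), where 0.557% of all genes passed. In Math1Hoxa5-IRES-GFP Hoxa5 stood at 9.73, 16.8 and 82.0 CPM, which overlapped the 6 references (1.35 ± 0.59, adjusted p = 0.255). Whether transcripts of the introduced allele are counted in this row is not given in the sources used here, so this check does not cover that allele. All 7 listed markers of pontine and rhombic lip neurons had counts in every group, and they summed to 4534 to 5046 CPM in Hoxa5tdTomato, 6220 to 8684 in Math1Hoxa5-IRES-GFP and 6460 to 8631 in the references. Replicate 3 of Math1Hoxa5-IRES-GFP stood apart, with 13074 genes at 1 count or more, the lowest number of the 12 libraries.

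The RefSeq annotation of GRCm38.p6 places Ncam1 on chromosome 9 (49502129 to 49799393), Ncam2 on chromosome 16 (81200697 to 81624290), St8sia2 on chromosome 7 (73939119 to 74013727) and St8sia4 on chromosome 1 (95587682 to 95667717). Ncam1 overlaps the annotated long noncoding RNA Gm11149 and St8sia4 overlaps Gm30431. The strand setting of the count is not given in the sources used here, so reads of these pairs may not be told apart. RefSeq promoters, 300 bases around the annotated start, were matched for 3 of the 4 genes. They are shown because the study varies a DNA-binding homeodomain factor and because Ncam2 differed between the groups. Each runs 5′ to 3′ on the gene's strand in GRCm38.p6, with CpG dinucleotides in capitals.
Ncam2 promoter, chr16:81200447-81200746, plus strand: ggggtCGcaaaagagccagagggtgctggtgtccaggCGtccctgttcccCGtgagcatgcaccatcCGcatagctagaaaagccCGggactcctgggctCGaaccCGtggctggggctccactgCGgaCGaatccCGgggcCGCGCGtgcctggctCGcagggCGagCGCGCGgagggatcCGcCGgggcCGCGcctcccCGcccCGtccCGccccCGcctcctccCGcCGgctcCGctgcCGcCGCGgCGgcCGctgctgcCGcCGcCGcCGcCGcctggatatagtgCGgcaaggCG
St8sia2 promoter, chr7:74013633-74013932, minus strand: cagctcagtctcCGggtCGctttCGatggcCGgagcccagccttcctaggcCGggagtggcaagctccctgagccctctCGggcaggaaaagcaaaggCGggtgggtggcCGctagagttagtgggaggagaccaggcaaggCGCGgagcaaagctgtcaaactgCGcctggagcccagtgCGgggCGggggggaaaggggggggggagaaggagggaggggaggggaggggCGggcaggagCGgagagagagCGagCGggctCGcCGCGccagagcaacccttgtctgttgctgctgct
St8sia4 promoter, chr1:95667545-95667844, minus strand: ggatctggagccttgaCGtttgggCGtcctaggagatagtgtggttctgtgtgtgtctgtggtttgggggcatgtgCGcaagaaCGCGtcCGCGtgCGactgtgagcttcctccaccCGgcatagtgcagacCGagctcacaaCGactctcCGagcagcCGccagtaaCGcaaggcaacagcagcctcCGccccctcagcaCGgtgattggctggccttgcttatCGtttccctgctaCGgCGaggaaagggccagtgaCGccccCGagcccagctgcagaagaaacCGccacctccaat

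The Ncam2 promoter held 41 CpG dinucleotides in 75.7% GC, more CpG than 96.5% of 32851 RefSeq promoters of the same length, whose median was 7. The St8sia2 promoter held 20 in 68.7% GC, and the St8sia4 promoter 22 in 61.3% GC. The letters TAAT, a core bound by many homeodomain proteins, were searched on both strands and found in 0 of these 3 windows, against 58.0% of all promoters. The composite TGATTNAT, known as a joint Hox and Pbx sequence, was found in 0 of the 3, against 3.2% of all promoters. With A at its open position the longer motif contains the shorter. The absence says only that these letters are not in these windows.

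Compared per length over all 12 libraries, Ncam1 (mean 229.8 RPKM, CPM per kilobase of gene length) and St8sia2 (226 RPKM) were among the more abundant transcripts, ranked 77 and 79 of 14732 genes. Ncam2 averaged 25.9 RPKM (rank 2397) and St8sia4 9.76 RPKM (rank 5903). Each family therefore had 1 abundant and 1 scarcer member in these neurons. Lowest counts per library were 20936 for Ncam1, 10245 for St8sia2, 542 for Ncam2 and 725 for St8sia4. Counting error at those depths was 0.691%, 0.988%, 4.3% and 3.71% for Ncam1, St8sia2, Ncam2 and St8sia4. The coefficient of variation within a group was 3.46% to 4.70% for Ncam1, 5.63% to 26.8% for Ncam2 and 11.6% to 45.9% for St8sia4, and for St8sia2 it ran from 1.70% in the creErt2 references, where counting error is a large part of it, to 24.9% in Math1Hoxa5-IRES-GFP. These figures leave out the noise of amplification, which no molecular identifier marks.

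Ncam2 was lower in both Hoxa5 groups than in the references. Its level was 52.8, 61.2 and 87.4 CPM in Hoxa5tdTomato and 32.3, 44.5 and 27.2 CPM in Math1Hoxa5-IRES-GFP. The creErt2 references stood at 247, 221 and 233 CPM and the tdT references at 269, 323 and 317 CPM. No library of either Hoxa5 group reached any reference: the highest, at 87.4 CPM, lay far below the lowest reference, at 221 CPM. The means were 67.1 ± 18.0 CPM in Hoxa5tdTomato (SD, n = 3), 34.6 ± 8.89 CPM in Math1Hoxa5-IRES-GFP (SD, n = 3) and, over all 6 references, 268 ± 43.3 CPM (SD, n = 6).

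**Figure D1:**
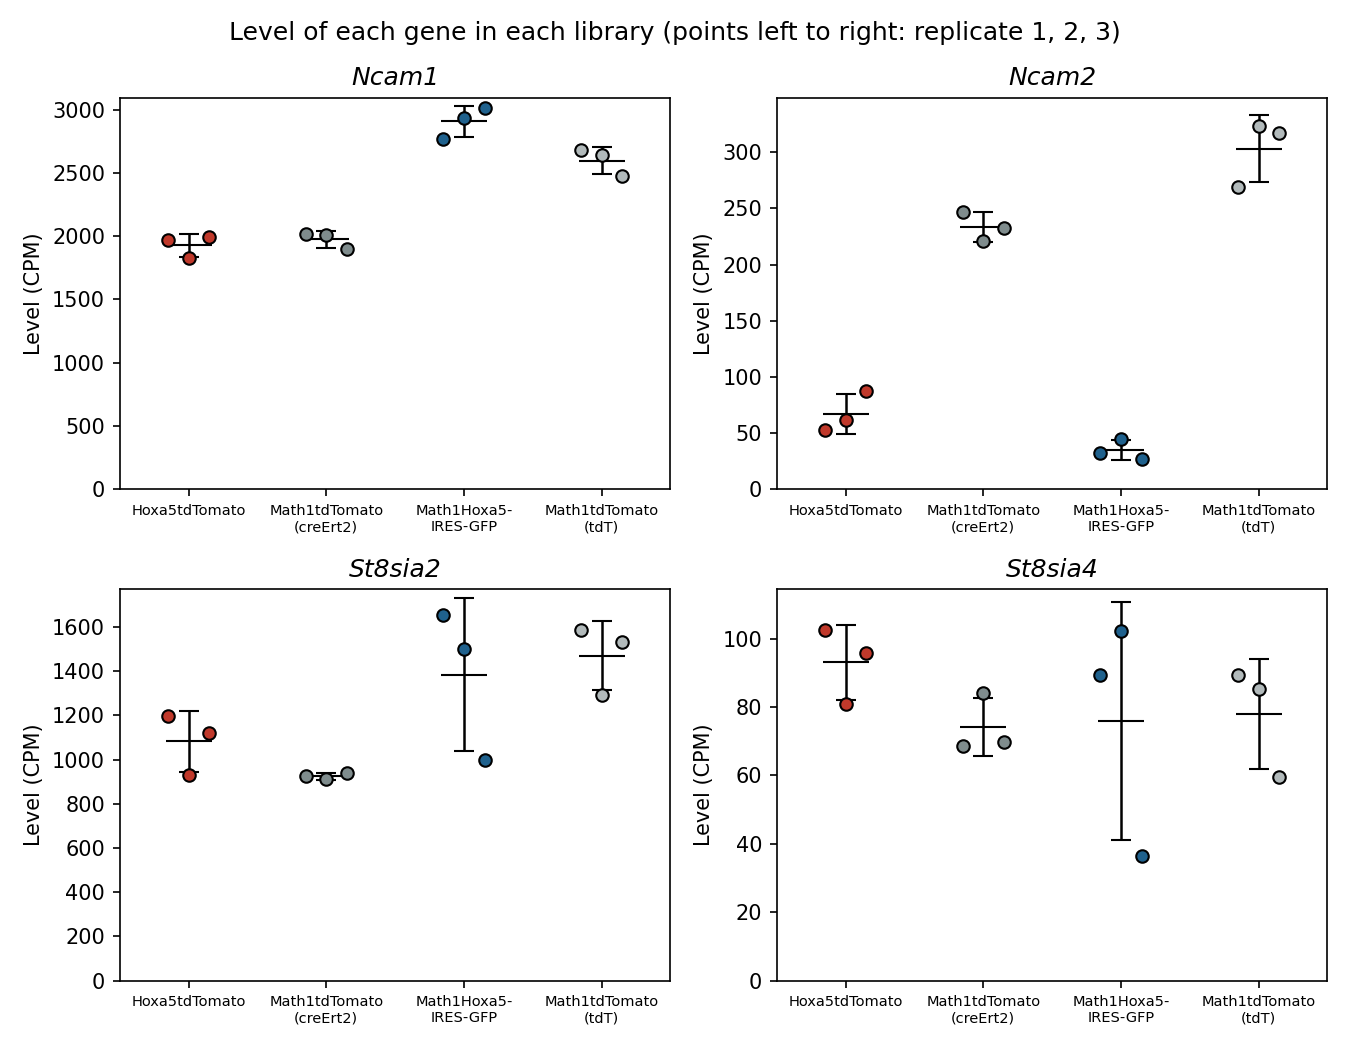
Level of the 4 genes in each library, in CPM, by group; points are libraries and bars the mean ± SD. Ncam2 lies at 27.2 to 87.4 CPM in the Hoxa5 groups, below all 6 references (221 to 323 CPM), while St8sia2 and St8sia4 overlap between the Hoxa5 groups and the references.

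Against the 6 references, Ncam2 was lower in Hoxa5tdTomato by a log2 fold change of -2.0 ± 0.22 (SE), and 6.93% of all genes likewise had every Hoxa5tdTomato library below every reference. In Math1Hoxa5-IRES-GFP the log2 fold change was -2.95 ± 0.23, 7.75-fold lower, and 3.27% of all genes had the same separation. Within the sets Ncam2 was lower as well. Hoxa5tdTomato was 3.48-fold lower than the creErt2 references (-1.80 ± 0.21), and 12.7% of genes were all below there. Math1Hoxa5-IRES-GFP was 8.75-fold lower than the tdT references (-3.13 ± 0.22), where 6.46% of genes were all below.

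Both within-set differences use different libraries, and Ncam2 stood near the bottom in each. In Hoxa5tdTomato 158 of the other genes had a lower log2 fold change, and in Math1Hoxa5-IRES-GFP 348 had. Of 14731 other genes, 21 were at least as low as Ncam2 in both, and among the 9394 genes with a mean of at least 10 CPM the number was 0. Since Ncam2 was chosen with these values in view, this describes the gene and does not test it.

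Hoxa5tdTomato held more Ncam2 than Math1Hoxa5-IRES-GFP. Its 3 libraries (52.8 to 87.4 CPM) lay above the 3 of Math1Hoxa5-IRES-GFP (27.2 to 44.5 CPM), 1.94-fold on the fitted scale (log2 fold change 0.95 ± 0.23), a separation seen in 14.7% of genes. The difference between the within-set differences was 1.33 ± 0.29 on the log2 scale. In replicates 1 and 2 of Math1Hoxa5-IRES-GFP Ncam2 stood at 32.3 and 44.5 CPM. Their Hoxa5 row stood at 9.73 and 16.8 CPM, within the range of the references. This row may leave out the introduced allele, so it cannot show how much Hoxa5 these libraries carried. A relation between Hoxa5 and Ncam2 was not tested. Without replicate 3 the mean of Ncam2 in Math1Hoxa5-IRES-GFP was 38.4 CPM.

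Transcripts of other cell types were present in some libraries. The 7 endothelial markers summed to 78.2 to 159 CPM in Hoxa5tdTomato, 0.150 to 35.6 in Math1Hoxa5-IRES-GFP and 0.749 to 21.9 in the references. The 6 pericyte markers summed to 99.9 to 202 CPM, 2.01 to 46.1 and 0.892 to 21.1 in the same groups, with Anpep at 0 in the references. Markers of astrocytes and radial glia summed to 358 to 605 CPM in Hoxa5tdTomato (Gfap at 0), 204 to 248 in Math1Hoxa5-IRES-GFP and 165 to 497 in the references. Both vascular sums lay above all references in Hoxa5tdTomato and overlapped them in Math1Hoxa5-IRES-GFP. Sums for GABAergic, oligodendrocyte lineage and dividing cell markers overlapped between each Hoxa5 group and the references. Among the GABAergic markers Gad1 was at 0 in Math1Hoxa5-IRES-GFP (log2 fold change -7.67, edgeR adjusted p = 0.0586), while Gad2 was at a log2 fold change of 0.40. Dlx1 was at 0 there and in the references. Meningeal sums were 7.92 to 11.6 CPM in Hoxa5tdTomato, with Dcn at 0, and at most 5.49 CPM in Math1Hoxa5-IRES-GFP and 3.80 CPM in the references. Microglial sums were 7.54 to 45.6 CPM in Hoxa5tdTomato, 1.44 to 4.81 in Math1Hoxa5-IRES-GFP and 0.321 to 8.83 in the references. Sums of pontine markers, given above, lay below all references in Hoxa5tdTomato and overlapped them in Math1Hoxa5-IRES-GFP, and markers of all neurons summed to 4142 to 4748 CPM, 5315 to 5829 CPM and 4382 to 5798 CPM in Hoxa5tdTomato, Math1Hoxa5-IRES-GFP and the references. The part of these markers in the differences of the members was not tested.

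Ncam1, the main carrier of polysialic acid, followed the set more than the group. It stood at 1967, 1826 and 1995 CPM in Hoxa5tdTomato and 2019, 2009 and 1896 CPM in the creErt2 references. Math1Hoxa5-IRES-GFP had 2770, 2938 and 3013 CPM, against 2678, 2642 and 2472 CPM in the tdT references. Hoxa5tdTomato overlapped its set's references, while the Math1Hoxa5-IRES-GFP libraries lay just above theirs. In order of mean level, Math1Hoxa5-IRES-GFP came first and the tdT references second, each without overlap with the next, and the creErt2 references and Hoxa5tdTomato overlapped at the low end.

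The log2 fold change of Ncam1 in Hoxa5tdTomato was -0.24 ± 0.13 (SE) against all 6 references and -0.03 ± 0.09 within the set, with overlap in both. In Math1Hoxa5-IRES-GFP it was 0.35 ± 0.13 against all 6, with every library above every reference (3.11% of genes), and 0.16 ± 0.09 within the set (6.01% of genes). Between the reference sets themselves Ncam1 was lower in creErt2 by a log2 fold change of -0.40 ± 0.09, a shift larger than either within-set difference. Hoxa5tdTomato lay below Math1Hoxa5-IRES-GFP by -0.59 ± 0.15 with no overlap (12.9% of genes), and the difference between the within-set differences was -0.20 ± 0.13.

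The balance of the paralogs within a library follows from these levels and is given as a description. The Ncam1 to Ncam2 ratio of RPKM within a library was 22.4, 18.0 and 13.8 in Hoxa5tdTomato and 51.7, 39.8 and 66.7 in Math1Hoxa5-IRES-GFP. Over the 6 references it was 4.70 to 5.99. Mean ratios were 18.0 ± 4.33 in Hoxa5tdTomato (SD, n = 3), 52.7 ± 13.5 in Math1Hoxa5-IRES-GFP (SD, n = 3) and 5.15 ± 0.488 in the references (SD, n = 6). The reference sets differed by less than their spread here, at 5.10 ± 0.328 for creErt2 and 5.20 ± 0.692 for tdT (SD, n = 3 each), although the level of each paralog differed between them. The ratio is free of library scaling.

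**Figure D2:**
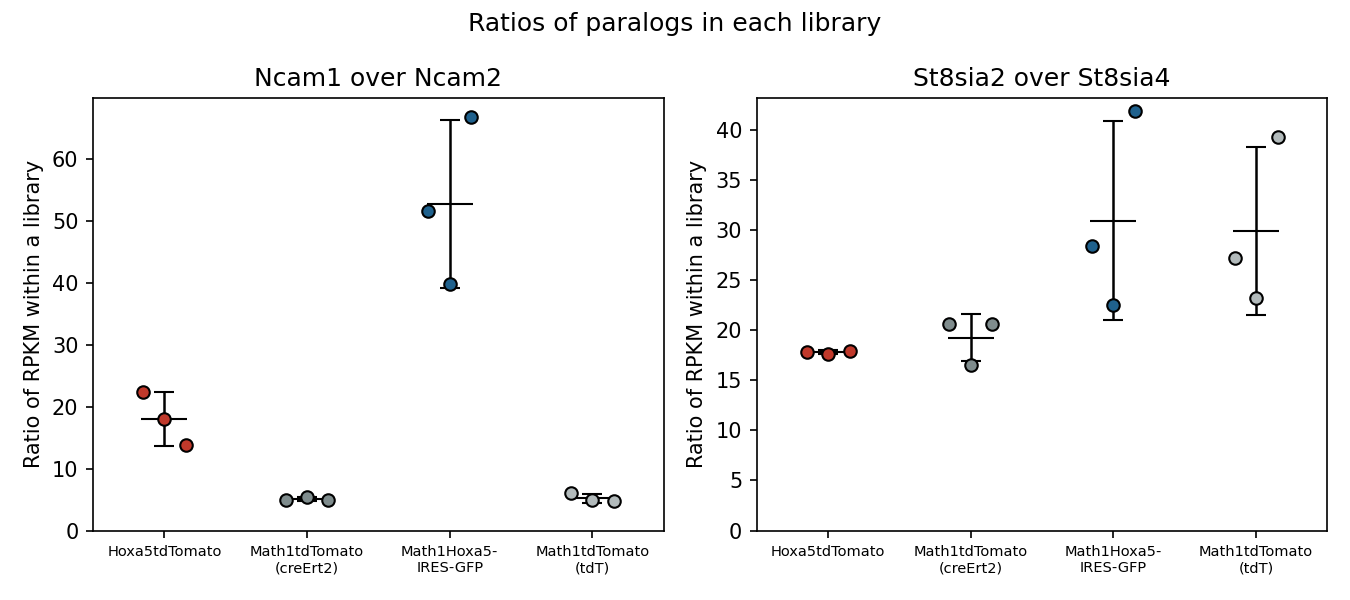
Ratio of RPKM within each library for Ncam1 over Ncam2 and St8sia2 over St8sia4, by group, with mean ± SD. The Ncam ratio is 4.70 to 5.99 in the references and 13.8 to 66.7 in the Hoxa5 groups, while the enzyme ratio overlaps between the groups of a set and is higher in every library of the Math1Hoxa5-IRES-GFP set (22.5 to 41.9) than in any of the Hoxa5tdTomato set (16.6 to 20.6).

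St8sia2, the enzyme that predominates in the embryo, stood at 1197, 931 and 1122 CPM in Hoxa5tdTomato and 924, 910 and 942 CPM in the creErt2 references. Math1Hoxa5-IRES-GFP had 1656, 1503 and 997 CPM, against 1587, 1292 and 1531 CPM in the tdT references. Both pairs overlapped, and replicate 3 of Math1Hoxa5-IRES-GFP was its lowest. Against the 6 references the log2 fold change was -0.14 ± 0.20 in Hoxa5tdTomato and 0.21 ± 0.20 in Math1Hoxa5-IRES-GFP. Within the sets the signs turned, to 0.23 ± 0.16 and -0.09 ± 0.16. The reference sets differed by -0.67 ± 0.16, with every creErt2 reference below every tdT reference, as for Ncam1 and Ncam2 (12.0% of genes). Of the 4 members, St8sia4 alone overlapped between the reference sets.

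St8sia4, the enzyme that persists into adult life, was the scarcer of the pair. It stood at 102, 81.0 and 95.7 CPM in Hoxa5tdTomato and 68.6, 84.0 and 69.8 CPM in the creErt2 references. Math1Hoxa5-IRES-GFP had 89.2, 102 and 36.4 CPM, against 89.3, 85.3 and 59.6 CPM in the tdT references. No pair of groups was separated, and the mean of Math1Hoxa5-IRES-GFP was 75.9 CPM with its replicate 3 and 95.7 CPM without it. The log2 fold changes against the 6 references were 0.29 ± 0.25 in Hoxa5tdTomato and -0.00 ± 0.26 in Math1Hoxa5-IRES-GFP (0.33 ± 0.19 without replicate 3). Within the sets they were 0.33 ± 0.30 and -0.04 ± 0.30, each no larger than about its SE.

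**Figure D3:**
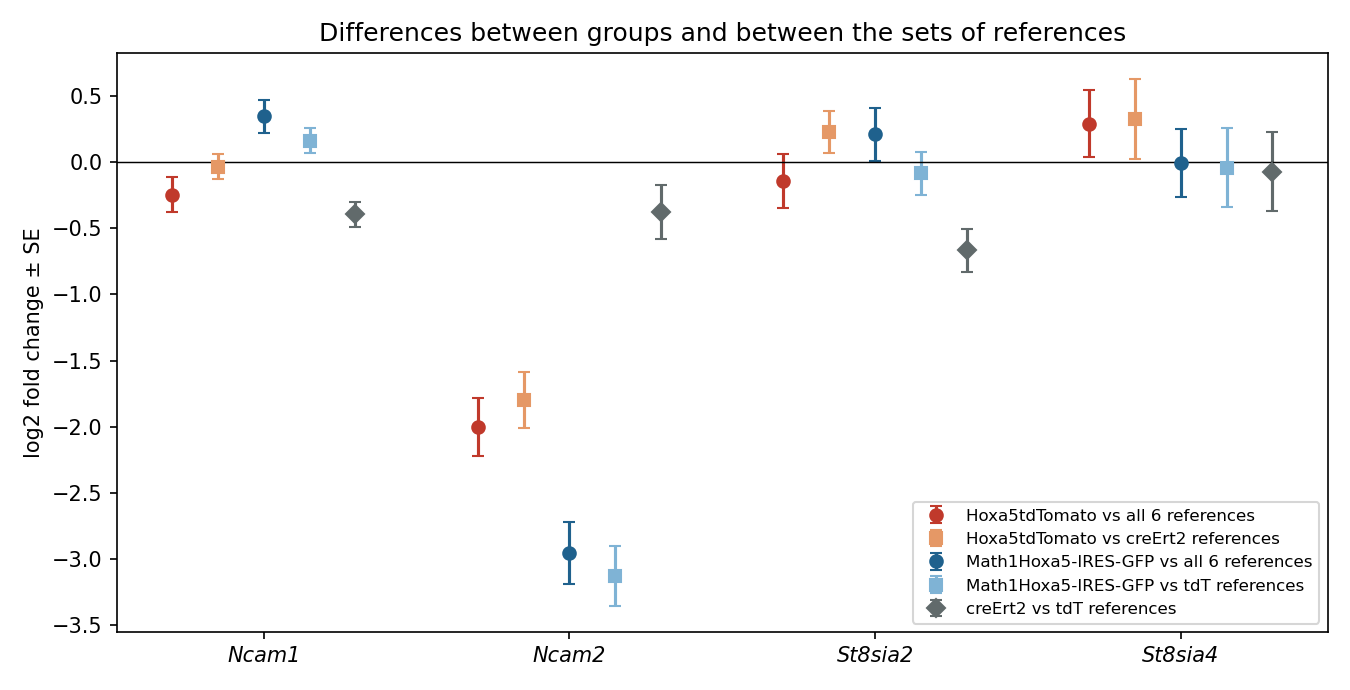
Log2 fold change ± SE of each member in the pooled and within-set comparisons. Ncam2 stands at -1.80 to -3.13 against references, and the other members between -0.24 and 0.35 there.

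The St8sia2 to St8sia4 ratio of RPKM was 17.8 ± 0.19 in Hoxa5tdTomato and 31.0 ± 9.95 in Math1Hoxa5-IRES-GFP, against 19.3 ± 2.34 in the creErt2 and 29.9 ± 8.38 in the tdT references (SD, n = 3 each). Ncam1 relative to the summed RPKM of both enzymes was 0.892 ± 0.0791, 1.13 ± 0.373, 1.07 ± 0.0492 and 0.904 ± 0.109 in the same order (SD, n = 3 each), so that the carrier and the enzymes were of like abundance per length in every group.

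The genes whose pattern over the 12 libraries was most like that of Ncam2, by the root mean square difference of centred log2 CPM, were Wscd1 (0.500), Palmd (0.538) and Wnt5a (0.572), the last a secreted Wnt ligand, against a median of 1.37 over 9394 candidates. Ncam2 itself had an SD of 1.37 on this scale, so that median is about what a flat pattern would give. Wscd1 averaged 71.4 CPM in Hoxa5tdTomato and 50.0 CPM in Math1Hoxa5-IRES-GFP, against 252 CPM in the creErt2 and 224 CPM in the tdT references. Wnt5a averaged 7.41 CPM and 3.39 CPM in the Hoxa5 groups, against 18.6 CPM and 38.3 CPM in those references. This likeness is a description over libraries that share groups.

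Of 37 other genes of the pathway in 4 lists, 32 were tested, by the edgeR test with Benjamini-Hochberg adjustment over all 14732 genes. In Hoxa5tdTomato 2 rose and 0 fell, where 1.73% of all genes passed, and in Math1Hoxa5-IRES-GFP 5 rose and 0 fell, where 1.84% passed. The lists were chosen with earlier results of these data known. These counts and the adjusted p values of list genes are therefore descriptions and no independent support for the pathway. The medians of the log2 fold changes over the 32 genes were -0.16 and 0.28, against 0.0049 and -0.0018 over all genes. The untested genes were Neu2, Neu4, Ccr7, Cd36 and Gdnf.

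Among the other carriers of polysialic acid, 1 of 3 tested genes rose in each Hoxa5 group. This was Nrp2, a semaphorin and VEGF co-receptor. It stood at 118, 203 and 181 CPM in Hoxa5tdTomato and 261, 384 and 328 CPM in Math1Hoxa5-IRES-GFP, against 47.2 to 108 CPM over the 6 references. Every library of both groups lay above every reference, as in 3.11% of all genes in Math1Hoxa5-IRES-GFP. That share is not given for Hoxa5tdTomato. The log2 fold change was 1.37 ± 0.24 in Hoxa5tdTomato (adjusted p = 0.00756) and 2.33 ± 0.24 in Math1Hoxa5-IRES-GFP (adjusted p = 3.68e-05). Within the sets edgeR gave 1.73 ± 0.24 (adjusted p = 0.00349) and 2.04 ± 0.24 (adjusted p = 0.00068), where 0.557% and 0.862% of all genes passed. Without Hoxa5tdTomato replicate 2 or 3 the first call was lost, at adjusted p = 0.0891 and 0.0599 (log2 fold change 1.21 and 1.31). In those fits 25 and 31 genes were called higher and 10 and 21 lower over all genes, against 255 calls with all libraries. Cadm1, a synaptic adhesion molecule, was at -0.40 ± 0.19 and -0.73 ± 0.20 without passing the edgeR test (adjusted p = 0.359 and 0.0672). In Math1Hoxa5-IRES-GFP its adjusted p was 0.0122 by DESeq2 and 0.0292 by edgeR without tdT reference 1. In Hoxa5tdTomato it was 0.00108 by edgeR in the libraries of the set alone. The Math1Hoxa5-IRES-GFP libraries (131 to 178 CPM) lay just below all references for Cadm1 (179 to 317 CPM), as in 3.27% of all genes. Glg1, a Golgi glycoprotein, was at -0.36 ± 0.14 and 0.029 ± 0.14 and did not pass. The Hoxa5tdTomato libraries (96.0 to 106 CPM) lay below all references for Glg1 (118 to 137 CPM), as in 6.93% of all genes.

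Of 15 tested partners of Ncam1, edgeR called 1 higher in Hoxa5tdTomato and 4 in Math1Hoxa5-IRES-GFP, and 0 lower in either. DESeq2 called 2 higher and 0 lower in the first, and 5 higher and 1 lower in the second. Ptk2 did not pass the edgeR test but lay below every reference in both groups. It stood at 128 to 149 CPM in Hoxa5tdTomato and 69.0 to 138 CPM in Math1Hoxa5-IRES-GFP, against 151 to 212 CPM. Such a separation was seen in 6.93% and 3.27% of all genes. Ptprz1, a receptor phosphatase that is also strong in radial glia, stood at 451, 443 and 379 CPM in Hoxa5tdTomato and 508, 523 and 158 CPM in Math1Hoxa5-IRES-GFP, against 89.5 to 239 CPM in the references. It passed in both, at 1.58 ± 0.30 (adjusted p = 0.0141) and 1.49 ± 0.30 (adjusted p = 0.0143). Within the sets the folds were of like size, at 1.73 ± 0.38 and 1.36 ± 0.37, but did not pass (adjusted p = 0.0540 and 0.114), and without any 1 Hoxa5tdTomato library the first was lost, at adjusted p = 0.0590 to 0.0982. The log2 fold change was then 1.54, 1.55 and 1.66 without replicates 1, 2 and 3. Over all genes 26, 25 and 31 were called higher and 10, 10 and 21 lower in those fits, against 255 calls with all libraries. Replicate 3 of Math1Hoxa5-IRES-GFP lay among the references, unlike replicates 1 and 2, and without replicate 2 the second call was lost (adjusted p = 0.0622).

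Fgfr2, a fibroblast growth factor receptor, stood at 158, 116 and 145 CPM in Math1Hoxa5-IRES-GFP, against 29.1 to 57.4 CPM in the references. The groups did not overlap, and 3.11% of all genes likewise had every Math1Hoxa5-IRES-GFP library above every reference. Fgfr2 rose by 1.66 ± 0.23 on the log2 scale (adjusted p = 0.000644), or 1.58 ± 0.27 within the set (adjusted p = 0.00951). Gap43, a growth cone protein, rose by 0.70 ± 0.13 (adjusted p = 0.0105) and Fgfr1, a receptor that binds Ncam1, by 0.64 ± 0.15 (adjusted p = 0.0304). Within the set the folds were 0.62 ± 0.14 and 0.66 ± 0.17, and neither passed (adjusted p = 0.0581 and 0.0830). Fgfr1 missed the threshold without any 1 of 9 libraries (all but Math1Hoxa5-IRES-GFP replicate 2, creErt2 reference 1 and tdT reference 2), at adjusted p = 0.0508 to 0.0773, and fitted on the libraries of the set alone Fgfr2 did too (adjusted p = 0.139). In that last fit 7 genes were called higher and 3 lower of all 13410. In Hoxa5tdTomato Gap43 had 0.54 ± 0.14 (adjusted p = 0.0505), which missed the threshold of 0.05. It passed in 9 of 19 alternatives, among them RLE scaling (adjusted p = 0.0396), library-size scaling (0.0129), DESeq2 (0.00704) and the libraries of the set alone (0.000369). Sptbn1, a spectrin, Ncan, a proteoglycan ligand, and L1cam, an adhesion molecule of the same superfamily, did not pass the edgeR test in either comparison. Their adjusted p values were 0.738, 0.440 and 0.697 in Hoxa5tdTomato and 0.989, 0.236 and 0.0548 in Math1Hoxa5-IRES-GFP. L1cam passed in Math1Hoxa5-IRES-GFP by RLE scaling (adjusted p = 0.0483), by DESeq2 (0.0110), and without Math1Hoxa5-IRES-GFP replicate 3 (0.0164) or tdT reference 2 (0.0280), and in Hoxa5tdTomato in the libraries of the set alone (0.0130).

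For the supply, transfer and removal of sialic acid, 0 of 11 tested genes passed the edgeR test against the references in either Hoxa5 group, with 3 in Hoxa5tdTomato and 2 in Math1Hoxa5-IRES-GFP at an unadjusted p under 0.05 (14.6% and 16.7% of all genes). DESeq2 called 0 and 0 of them. St8sia3, a related sialyltransferase with the highest CPM of that list, was at 0.044 ± 0.17 (adjusted p = 0.952) in Hoxa5tdTomato and 0.48 ± 0.17 (adjusted p = 0.160) in Math1Hoxa5-IRES-GFP. Cmas, which activates sialic acid, was at -0.30 ± 0.20 (adjusted p = 0.564) and 0.26 ± 0.20 (adjusted p = 0.545) in those groups. Slc35a1, which carries the activated sugar into the Golgi, was at 0.53 ± 0.22 (adjusted p = 0.259) and 0.067 ± 0.22 (adjusted p = 0.914). Of the 3 proteases known to release the Ncam ectodomain, Adam10, Adam17 and Bace1, edgeR called 0 in either comparison, with 0 at an unadjusted p under 0.05, and DESeq2 called 0 and 0. The medians of their log2 fold changes were -0.28 in Hoxa5tdTomato and 0.31 in Math1Hoxa5-IRES-GFP.

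Between the Hoxa5 groups, 2 of the 32 genes were lower in Hoxa5tdTomato and 0 higher, where 3.35% of all genes passed. They were Fgfr2 (log2 fold change -1.08 ± 0.27, adjusted p = 0.0449) and St8sia1, which makes the ganglioside GD3 (-0.95 ± 0.24, adjusted p = 0.0449). St8sia1 stood at 117, 143 and 115 CPM in Hoxa5tdTomato, against 184, 193 and 345 CPM in Math1Hoxa5-IRES-GFP. Replicate 3 of the second group was the highest of these libraries, and without it neither gene passed (adjusted p = 0.115 for St8sia1 and 0.0677 for Fgfr2). With each group set against the references of its own set, the adjusted p of the difference was 0.692 for St8sia1 and 0.585 for Fgfr2. In that comparison 0 of all 14732 genes passed. Both calls were also lost without any 1 Hoxa5tdTomato library, without creErt2 reference 3 or tdT reference 2, and by RLE scaling, where the adjusted p was 0.0518 and 0.0511. Nearly every call over all genes was lost without a Hoxa5tdTomato library. There 0 genes were called between the Hoxa5 groups without replicate 1, and 1 without replicate 2 or without replicate 3.

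**Figure D4:**
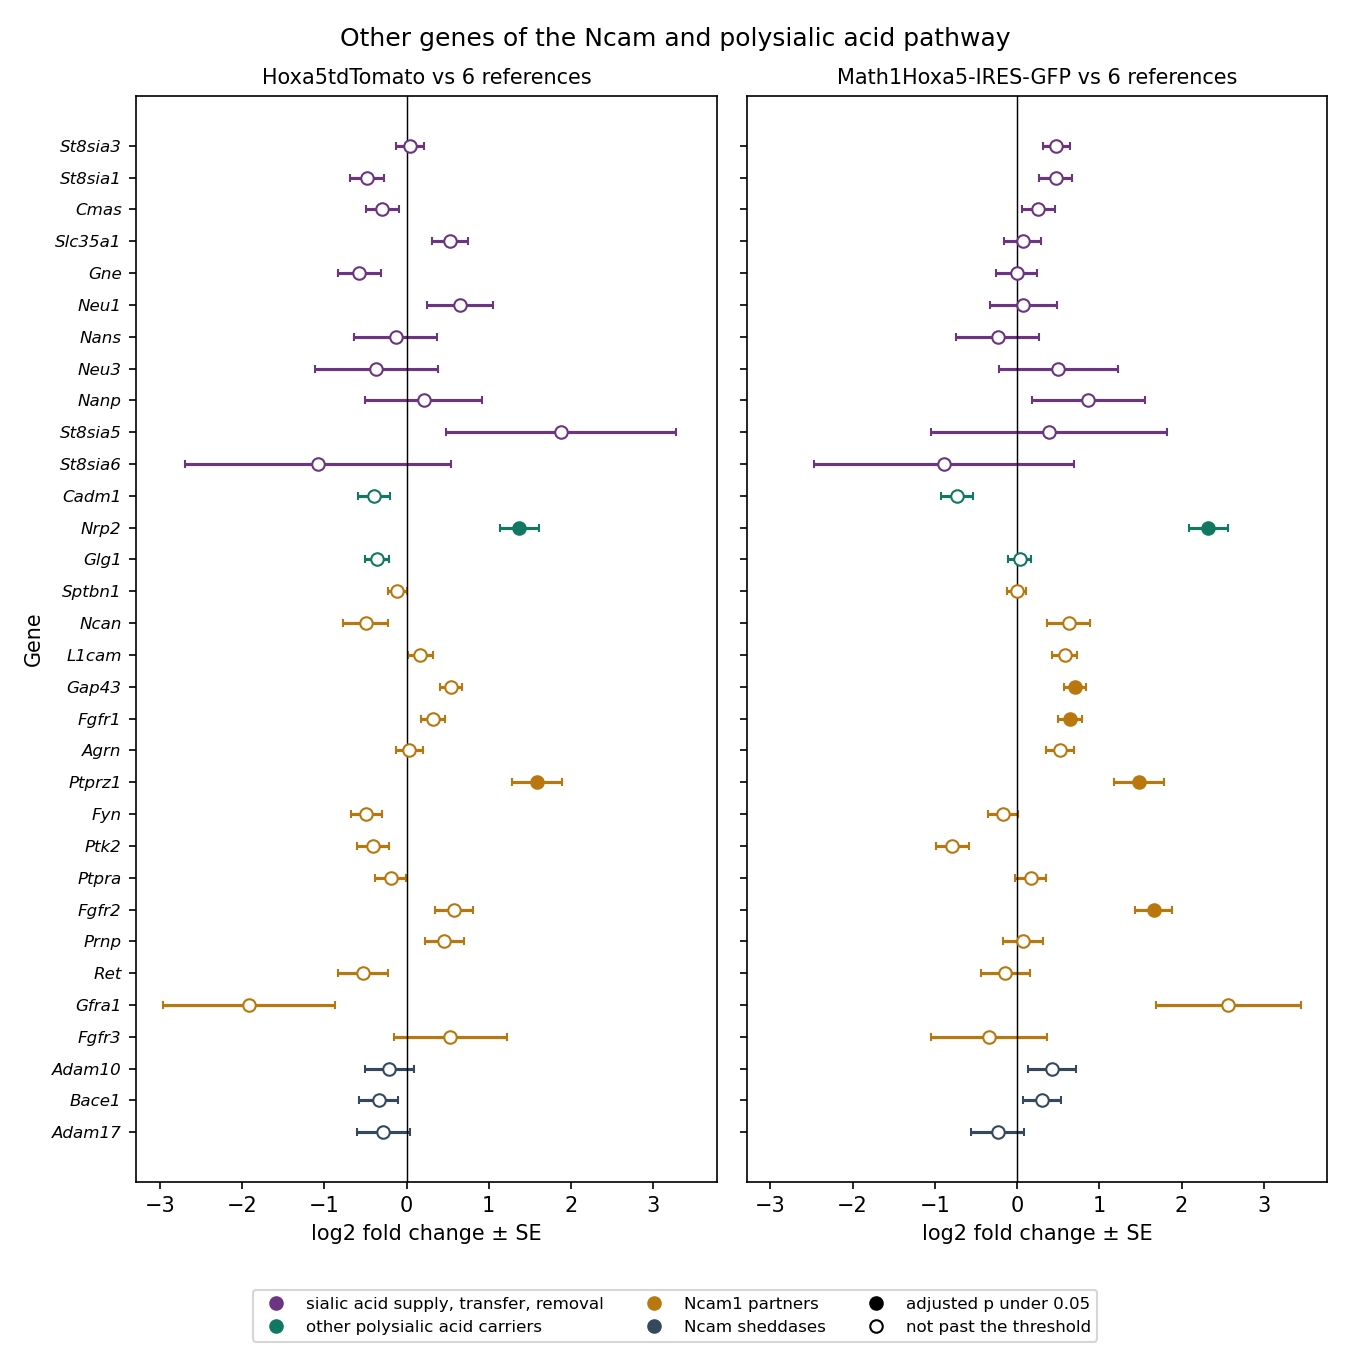
Log2 fold change ± SE of the 32 tested pathway genes outside the 4 members, Hoxa5tdTomato on the left and Math1Hoxa5-IRES-GFP on the right, each against the 6 references. Filled points passed: Nrp2 and Ptprz1 on both sides, and Fgfr2, Gap43 and Fgfr1 on the right.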

How the data were processed

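Pontine nucleus neurons were genetically labelled, microdissected and collected by FACS, 2000 cells for each replicate, per the labels' protocols. SPIA amplification (Ovation RNA-seq System V2) started from 1000 cell equivalents, and TruSeq Nano libraries were made from 1 ng of cDNA; such amplification can widen the spread of scarce transcripts. The authors deposited raw read counts per Entrez gene with each gene's length in bases. Genome build mm10 and bcl2fastq 1.8.4 are named per the submitters' processing notes. The aligner, the counter, the annotation and the handling of strand were not given in the sources used here, and isoforms cannot be separated in gene counts.

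Here 15 rows without a symbol were kept under their Entrez number. Genes were filtered with filterByExpr (minimum count 10), counts were scaled by TMM, and quasi-likelihood F tests used 1 mean per group over all 12 libraries (edgeR 4.0.16, R 4.3.3; common dispersion 0.312), with Benjamini-Hochberg adjustment over 14732 genes held against 0.05. Values within a set came from the same fit with 4 column-name groups, so their spread also rests on the other set. RPKM used the deposited lengths. The test was also run on simulated counts whose means and dispersions came from the fit of these data. The members and lists were chosen with earlier results of these data known.

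Named genes were the 4 members, each list gene that passed, the 3 others per list with the highest CPM, and the 3 genes most like each member (log2 CPM with prior count 2, mean of at least 10 CPM). Ptk2 was named besides, because it lay below all references in both Hoxa5 groups. Alternatives were RLE and library-size scaling, DESeq2 1.42.0, no filter, the 4-group fit, a replicate block, leaving out each library and, added after the data were seen, each set alone. RefSeq matched 4 of 4 members and a promoter for 3.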

Additional observations from a re-analysis of the deposited data

Results flagged for a closer look

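For 21 genes the 6 reference libraries were searched for a library far from the others, by the gap of the highest or lowest library to its neighbour as a share of the whole range, against Dixon's 95% critical value. Chance flags about 1 in 20 such groups, and 3 of 21 were flagged, all of them tdT references. Nrp2 stood at 107.894 CPM in tdT replicate 3, against 64.8 CPM in the next highest reference. Cmas stood at 164.118 CPM in tdT replicate 2, against 118 CPM in the next. Slc35a1 stood at 33.2019 CPM in tdT replicate 1, against 48.5 CPM in the next lowest. None of the 4 members was flagged.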

How the results depend on the processing

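Of 232 recomputed log2 fold changes of the members, 219 moved by less than a spread between libraries and 13 moved further. Against the references, this spread pooled both reference sets, so it also held the shift between them. For Ncam1 it was 0.19 in Hoxa5tdTomato against the references, but 0.066 between the Hoxa5 groups. Ncam1 in Math1Hoxa5-IRES-GFP fell from 0.35 to 0.16 within the set and still counted among the 219. That count therefore does not show that values held whichever references were used. Ncam2 kept its sign in all alternatives: with the fits against the own set's references included, it ran from -2.24 to -1.77 in Hoxa5tdTomato and from -3.17 to -2.81 in Math1Hoxa5-IRES-GFP. With references of the own set, the replicate block and 1 set alone, Ncam1 in Hoxa5tdTomato was -0.034, -0.033 and -0.0050, and St8sia2 turned sign to 0.23, 0.22 and 0.26. Between the Hoxa5 groups, Ncam1 was -0.30 by library size, -0.20 within sets and -0.20 with the block, Ncam2 was 1.33 within sets, and St8sia2 was 0.31 within sets and 0.31 with the block. Between the reference sets Ncam1 was -0.30 by library size.

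The count of pathway genes called in Hoxa5tdTomato was 1 within sets, 6 in 1 set alone (4 higher and 2 lower), and 0 to 3 with 1 library left out. In Math1Hoxa5-IRES-GFP it was 8 by DESeq2 (6 higher and 2 lower), 2 within sets, 2 with the replicate block and 1 in 1 set alone. The absence of lower calls in the main fit thus did not hold in every alternative. Between the Hoxa5 groups it was 0 by RLE, by library size, within sets and with the block, 5 by DESeq2, 4 with no filter, and 0 to 4 with 1 library left out. The calls over all genes changed too. Between the Hoxa5 groups 0 of 14732 genes were called within sets and with the block. RLE called 107 higher and 225 lower there, library size 116 and 32, and DESeq2 629 and 855. In 1 set alone 570 were higher and 410 lower of 13629 in Hoxa5tdTomato, and 7 and 3 of 13410 in Math1Hoxa5-IRES-GFP. Same-numbered libraries did not deviate together (18 pairs, r from -0.029 to 0.049), so the block rests on numbers alone. With library-size scaling the median of all genes stood at 0.16, -0.13 and 0.30 in the 3 comparisons, against 0.0049, -0.0018 and 0.021 by TMM, and with it 170 genes were higher and 70 lower in Hoxa5tdTomato, against 124 and 131 by TMM.

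Of 952 values of named pathway genes, 50 lost and 23 gained a call and 34 turned sign. In Hoxa5tdTomato Sptbn1 was 0.047 by library size, and Ncan 0.013 within sets, 0.012 with the block and 0.041 in 1 set alone. In Math1Hoxa5-IRES-GFP Slc35a1 was -0.059 and Glg1 -0.097 by library size, and Sptbn1 0.0031 by RLE and 0.0031 by DESeq2. Between the Hoxa5 groups Gap43 was 0.12 by library size, 0.010 within sets and 0.00045 with the block, Cadm1 -0.27 within sets and -0.27 with the block, Sptbn1 0.17, 0.0078 and 0.0079 in that order, and Adam17 0.27 by library size. With 1 library left out, in Hoxa5tdTomato St8sia3 ran from -0.050 to 0.16; in Math1Hoxa5-IRES-GFP Slc35a1 ran from -0.12 to 0.23, Glg1 ran from -0.028 to 0.083, Sptbn1 ran from -0.063 to 0.10, Adam10 ran from -0.23 to 0.76, Adam17 ran from -0.78 to 0.058; between the Hoxa5 groups Ptprz1 ran from -0.28 to 0.36, Adam10 ran from -0.97 to 0.017, Adam17 ran from -0.32 to 0.50. The cause was not tested.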

Other observations

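The 3 genes whose pattern over the 12 libraries was most like that of each other member were also listed. For Ncam1 they were Pcdhga3 (root mean square difference of 0.0654 on the log2 scale), Pcdhgb7 (0.0796) and the chromatin remodeller Atrx (0.0799), against a median of 0.468 over 9394 candidates. Ncam1 itself had an SD of 0.270 on this scale. Both protocadherins belong to a cluster whose members share constant exons, so their counts are uncertain. Atrx averaged 977 CPM in Hoxa5tdTomato and 1566 CPM in Math1Hoxa5-IRES-GFP, against 1077 CPM in the creErt2 and 1398 CPM in the tdT references. For St8sia2 they were the microtubule-associated gene Map4 (0.143), Dek (0.150) and Edrf1 (0.152), and for St8sia4 Ndfip2 (0.141), 9430015G10Rik (0.156) and the synaptic gene Cplx1 (0.186). Ndfip2 averaged 94.5 CPM in Hoxa5tdTomato and 74.2 CPM in Math1Hoxa5-IRES-GFP, against 70.1 CPM in the creErt2 and 69.0 CPM in the tdT references. These are descriptions over libraries that share groups.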
